A study of Homo sapiens with 70 samples.

Results

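The comparison described here is the difference between DOX and DMSO at day 3 in cells that carried either of the 2 guide RNAs against ZBTB11, with the guides in 1 fit. DOX is read here as doxycycline, the usual inducer of such constructs, since the labels give the abbreviation alone. Its members are the 12 libraries whose titles name sgZBTB11 #1 or sgZBTB11 #2 at 3 days, of 70 libraries in the series. They comprise 6 DOX and 6 DMSO libraries, 3 of each per guide. The cells were MIA PaCa-2, an established line of pancreatic ductal adenocarcinoma, in a form resistant to the cancer drug sotorasib. The design describes induced dCas9-KRAB, taken here to be carried by the cells of every group, sgNS included. It is a dead Cas9 joined to a repressor domain that a guide RNA brings to a promoter to lower transcription. The third guide, sgNS, which names no gene and is taken here as the control guide, has 3 DOX and 3 DMSO libraries at day 3. It is not subtracted in the main comparison. In the 12 libraries alone, lowered ZBTB11 cannot be told apart from DOX itself or from the induced repressor. The sgNS change is therefore given beside many of the results, but not beside every list member named. A change given without it may have occurred in sgNS too. The sources used here do not say whether the lines were clones or whether replicate libraries were grown apart. If they were not, the p-values reflect technical spread alone.

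ZBTB11 is a DNA-binding protein with a BTB domain and a row of zinc fingers, and it has been linked to the transcription of nuclear genes whose products work in mitochondria. Mitochondria read their own small genome with imported proteins. Mitochondrial ribosomes, whose protein subunits are all made from nuclear genes and carry the prefix MRPL (large subunit) or MRPS (small subunit), translate a handful of respiratory chain subunits, and the remaining subunits are imported through the TOM and TIM complexes. Coenzyme Q, made by the COQ proteins on the inner membrane, carries electrons from complexes I and II to complex III.

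The bases just upstream of 6 genes are shown because these genes fell in each guide and also net of sgNS. These tests share the same 12 libraries, so passing all of them is not added support. They are the 6 with the largest decreases among such genes that had a RefSeq window next to the gene's end in the RefSeq gene table. Each run holds the 250 bases before the annotated start, 5′ to 3′ on the gene's strand, in GRCh38.p14. The places are chr3:101677133-101677382 for ZBTB11 (minus strand), chr11:73787624-73787873 for MRPL48 (plus), chr15:75368608-75368857 for MAN2C1 (minus), chr7:141551160-141551409 for AGK (plus), chr2:99180934-99181183 for MRPL30 (plus) and chr22:19432295-19432544 for MRPL40 (plus). Capitals mark matches, on either strand, to CCGGAAG (the core bound by ETS factors and GABP), GCGCATGC (NRF1 core), CACGTG (E-box), TGATGNAA (ATF4 composite core) or AAGATGGC (YY1 core).
ZBTB11: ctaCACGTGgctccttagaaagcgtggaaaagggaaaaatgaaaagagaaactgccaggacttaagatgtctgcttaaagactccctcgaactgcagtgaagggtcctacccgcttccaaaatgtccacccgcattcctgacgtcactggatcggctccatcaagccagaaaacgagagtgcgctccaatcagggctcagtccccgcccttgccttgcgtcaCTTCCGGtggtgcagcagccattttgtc
MRPL48: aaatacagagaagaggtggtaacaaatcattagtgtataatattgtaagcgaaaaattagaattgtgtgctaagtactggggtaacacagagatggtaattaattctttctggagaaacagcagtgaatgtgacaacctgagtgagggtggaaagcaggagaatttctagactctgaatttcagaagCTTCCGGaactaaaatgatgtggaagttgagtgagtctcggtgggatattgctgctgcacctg
MAN2C1: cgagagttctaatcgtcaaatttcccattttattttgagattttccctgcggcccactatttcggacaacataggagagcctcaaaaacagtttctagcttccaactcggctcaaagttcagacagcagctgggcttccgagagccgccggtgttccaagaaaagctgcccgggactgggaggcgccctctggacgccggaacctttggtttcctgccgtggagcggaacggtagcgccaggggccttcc
AGK: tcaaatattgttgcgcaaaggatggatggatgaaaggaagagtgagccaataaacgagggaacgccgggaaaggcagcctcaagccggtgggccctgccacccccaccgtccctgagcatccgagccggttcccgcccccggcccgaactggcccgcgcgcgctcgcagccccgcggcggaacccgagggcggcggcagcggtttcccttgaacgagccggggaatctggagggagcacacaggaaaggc
MRPL30: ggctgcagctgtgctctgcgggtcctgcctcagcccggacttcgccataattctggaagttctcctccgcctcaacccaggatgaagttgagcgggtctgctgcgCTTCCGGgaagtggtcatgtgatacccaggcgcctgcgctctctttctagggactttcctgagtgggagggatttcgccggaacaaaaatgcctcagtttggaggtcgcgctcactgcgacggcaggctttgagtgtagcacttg
MRPL40: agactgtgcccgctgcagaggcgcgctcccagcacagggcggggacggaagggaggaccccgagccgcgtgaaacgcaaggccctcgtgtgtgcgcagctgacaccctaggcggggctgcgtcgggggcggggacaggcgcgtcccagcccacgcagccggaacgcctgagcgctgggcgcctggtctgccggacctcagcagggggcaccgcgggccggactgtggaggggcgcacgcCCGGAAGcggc
A CCGGAAG match began 28 bases before the start of ZBTB11, 63 before MRPL48, 145 before MRPL30 and 11 before MRPL40, counted from the far end of the match. ZBTB11 also held a CACGTG match 247 bases before its start. MAN2C1 and AGK held no match to these letters in the stretch shown, and the window of MAN2C1, which also covers the 50 bases after the start, held a CCGGAAG match outside that stretch. Of the 35116 RefSeq windows, which reach from 250 bases before to 50 after a start, 10.3% held CCGGAAG, 3.05% GCGCATGC, 7.26% CACGTG, 3.62% TGATGNAA and 2.89% AAGATGGC. Among the 11012 tested genes with a window the share with CCGGAAG was 19.4%. The 6 genes were chosen by their decreases, and nothing is read from their matches. CCGGAAG and AAGATGGC can share bases. Windows were at hand for 76.2% of the genes that fell and 66.9% of all genes tested, both under the 80% set as the minimum, so shares were not compared between these sets. No window was at hand for COQ3.

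Total counts of the 12 libraries were 12068833 to 17323314. In sgZBTB11 #1 the DMSO libraries held 12068833 to 14512911 counts and the DOX libraries 14428064 to 17323314. In sgZBTB11 #2 the ranges were 15883390 to 16729691 and 16062098 to 17275821. The first principal component, with 35% of the variance over 11408 genes, separated the 2 guide lines, and the second held 11.7%. Markers of carcinoma lines were present in part. KRT8 was at 611 to 754 TPM (transcripts-per-million) in the 18 day 3 libraries, KRT18 at 1248 to 1434 and the mesenchymal gene VIM at 3312 to 3845. The keratin KRT7 and the epithelial genes EPCAM and CDH1 reached at most 0.29, 0.13 and 0.17 TPM, and the mesenchymal cadherin CDH2 was at 0 in every library. Of the 11 line markers tested KRT19 (-0.20), KRT8 (-0.13) and KRT18 (-0.09) fell, and their part in the other results was not tested.

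ZBTB11 (ENSG00000066422.7, chromosome 3, 101648889 to 101677132) was lower with DOX in both guides. In CPM (counts-per-million, scaled between libraries), it was at 49.2, 49.6 and 50.6 with DMSO and at 34.1, 37.1 and 37.7 with DOX in sgZBTB11 #1. In sgZBTB11 #2 it was at 49.3, 47.9 and 50.8 with DMSO and at 29, 28.3 and 28.6 with DOX. The DOX libraries were below the DMSO libraries in each guide, with no overlap. Mean levels with DOX were 72.9% of those with DMSO in sgZBTB11 #1 (36.3 ± 1.9 against 49.8 ± 0.71, SD, n = 3 each) and 58% in sgZBTB11 #2 (28.6 ± 0.34 against 49.3 ± 1.4). The log2 change with both guides was -0.62 (SE 0.047, adjusted p = 8.5e-10 by edgeR's quasi-likelihood test with Benjamini-Hochberg adjustment). It was -0.45 in sgZBTB11 #1 and -0.78 in sgZBTB11 #2, and the difference between the guides, -0.33, did not pass the threshold of 0.05 (adjusted p = 0.16). In sgNS the level was 59.1 ± 4.6 CPM with DMSO and 56.8 ± 3.7 with DOX, a log2 change of -0.06 (adjusted p = 0.71), and net of sgNS the change was -0.56 (SE 0.065, adjusted p = 8.3e-07). As TPM, ZBTB11 was at 11.2 to 12.2 with DMSO and 7.73 to 9.13 with DOX in sgZBTB11 #1, and at 12.3 to 12.9 and 6.98 to 7.45 in sgZBTB11 #2.

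The 9 other tested genes around ZBTB11 on chromosome 3 did not pass in either direction. They include the antisense gene ZBTB11-AS1 (-0.07, adjusted p = 0.91), TRMT10C, a subunit of the mitochondrial enzyme that cuts tRNA 5′ ends (-0.05, 0.73), RPL24, a cytosolic ribosomal protein (-0.05, 0.42) and PCNP (0.04, 0.67). Reads of ZBTB11 and ZBTB11-AS1 cannot be told apart where they overlap, because the strand setting of the counting is not given in the sources used here.

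**Figure D1:**
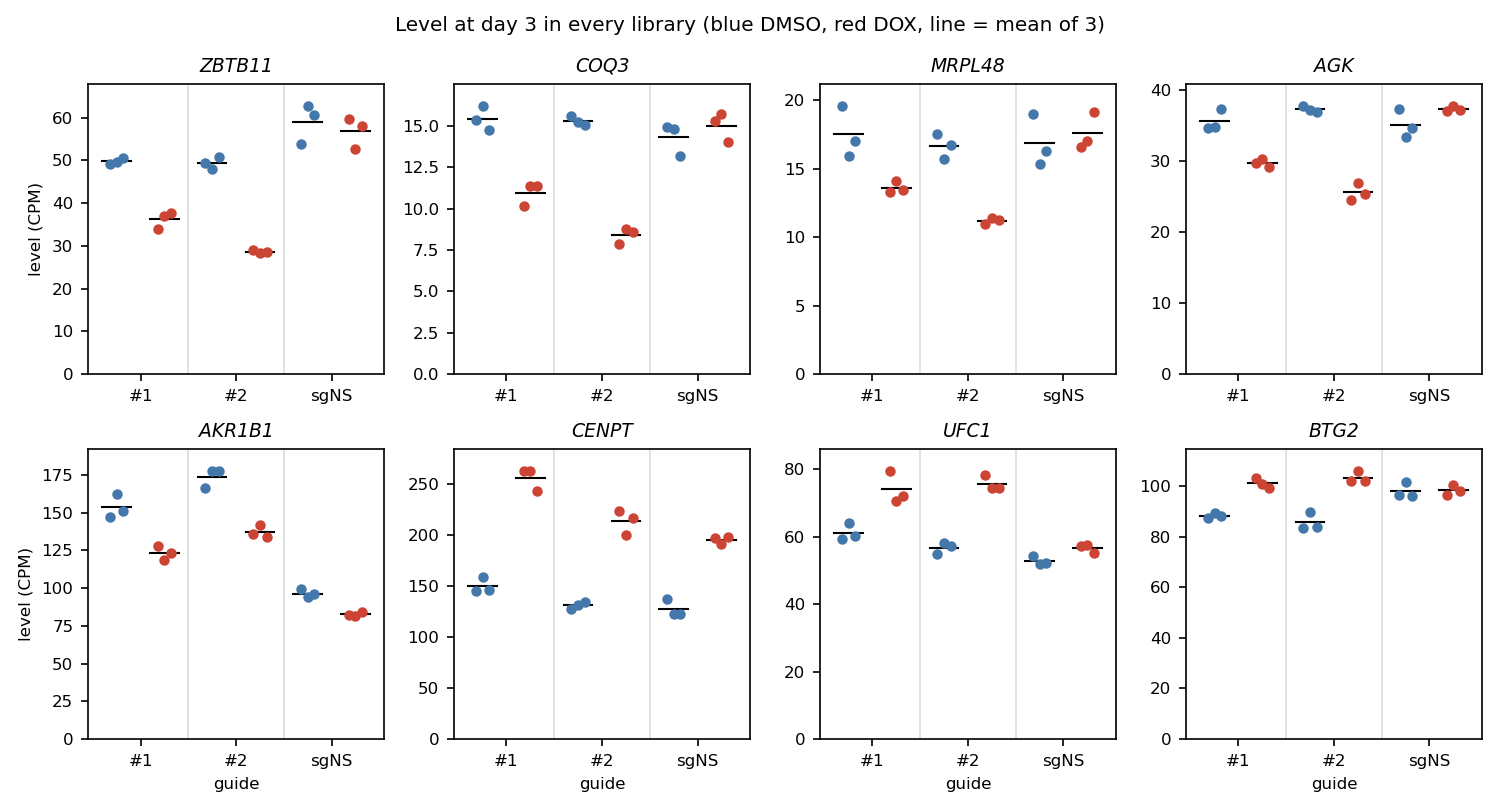
Level of 8 genes at day 3 in CPM (vertical axes, starting at 0) in each of the 18 libraries, grouped by guide. Blue points are DMSO and red points DOX libraries, and each line is the mean of 3. ZBTB11, COQ3, MRPL48 and AGK were lower with DOX in both ZBTB11 guides and not in sgNS, while AKR1B1 and CENPT also moved in sgNS.

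With both guides together 330 of 16472 tested genes changed at an adjusted p of 0.05 or less (2%). Of these, 261 fell (1.58%) and 69 rose (0.419%), and 2178 genes had an unadjusted p under 0.05. Most changes were small. The median size was 0.16 on the log2 scale, 50 of the 261 genes that fell did so by at least 0.25, and 6 by at least 0.5. Of the genes that rose, 21 did so by at least 0.25 and 8 by at least 0.5. Protein-coding genes made up 253 of the 261 and 65 of the 69. As a description, every DOX library lay below every DMSO library in both guides for 180 of the 261 genes that fell, and above for 48 of the 69 that rose (1.88% and 0.844% of all tested genes). The same libraries chose these genes, so the counts do not support the calls.

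Each guide was also tested alone, with the spread of all 12 libraries. In sgZBTB11 #1, 112 genes changed (0.68%), 28 up and 84 down. In sgZBTB11 #2, 176 genes changed (1.07%), 38 up and 138 down. The guides share no library, and 37 genes fell in both, which is 44% of the 84 and 26.8% of the 138. In both guides 8 genes rose, 28.6% of the 28 and 21.1% of the 38. The median change of the 261 genes was -0.15 in sgZBTB11 #1 and -0.16 in sgZBTB11 #2, and that of the 69 genes 0.17 and 0.19, again over the libraries that chose them. The change differed between the guides for 3 genes (0.0182%), of which SOCS3 and FOSB had a mean of at least 5 CPM and are described with the immediate early genes.

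In the control guide, 146 of 16645 tested genes changed with DOX at day 3 (0.877%). Of the 261 genes that fell with the ZBTB11 guides, 191 had a change of the same sign in sgNS, where their median was -0.04, and 21 fell there past the threshold. Those 21 are 8.05% of the 261 and 26.6% of the 79 genes that fell in sgNS. Of the 69 that rose, 49 had the same sign in sgNS with a median of 0.07. There 12 rose past the threshold, which is 17.4% of the 69 and 17.9% of the 67 genes that rose in sgNS, and 1 fell. For 23 of the 261 and 14 of the 69, the sgNS change was at least as large as that of the ZBTB11 guides. Net of sgNS, in a test that uses the same 12 libraries, 82 of 16645 genes passed (0.493%), 26 higher and 56 lower. This count rested on single sgNS libraries. It was 262, with 141 higher and 121 lower, without sgNS DMSO replicate 1, and 29 to 46 without any other sgNS library.

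**Figure D2:**
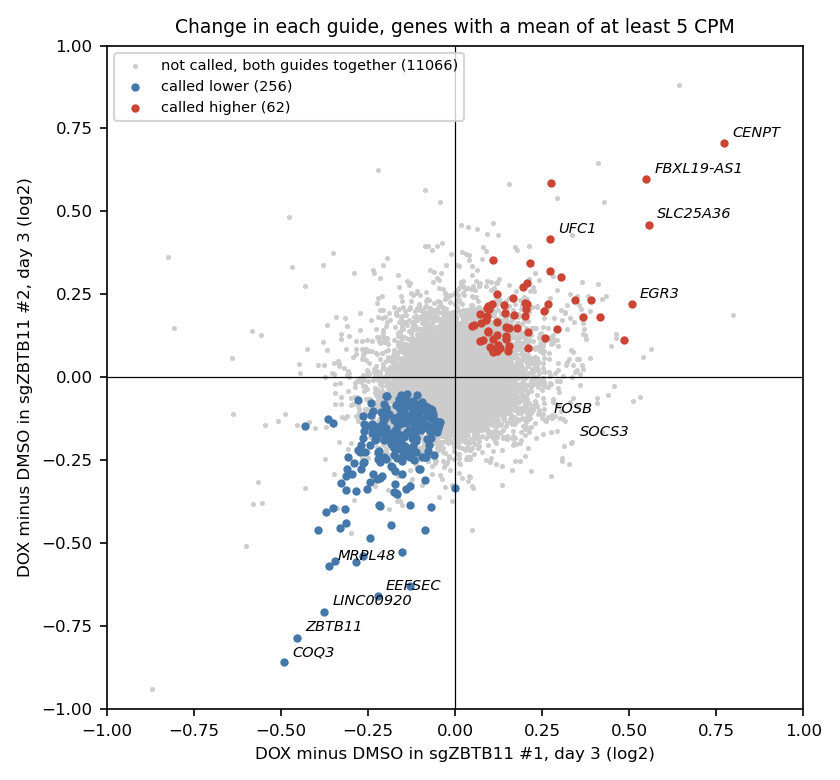
Log2 change with DOX at day 3 in sgZBTB11 #1 (horizontal) and sgZBTB11 #2 (vertical) for genes with a mean of at least 5 CPM. Blue points are the 256 genes that fell and red points the 62 that rose with both guides together, and grey points are the other 11066. COQ3 and ZBTB11 lie lowest on the vertical axis among the blue points, and SOCS3 and FOSB lie right of 0 and below it.

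The largest decrease among genes with a mean of at least 5 CPM was that of COQ3 (ENSG00000132423.12, chromosome 6, 99369401 to 99394195), which makes a mitochondrial methyltransferase of coenzyme Q synthesis. Its level was 15.4, 16.2 and 14.7 CPM with DMSO and 10.2, 11.3 and 11.3 with DOX in sgZBTB11 #1, and 15.6, 15.2 and 15 against 7.88, 8.77 and 8.59 in sgZBTB11 #2. The treatments did not overlap in either guide, the DOX libraries being the lower, and mean levels with DOX were 70.9% and 55.1% of those with DMSO. The log2 change was -0.68 (SE 0.068, adjusted p = 1.3e-08). In sgNS it was at 14.9, 14.8 and 13.2 CPM with DMSO and 15.3, 15.7 and 14 with DOX, so these groups overlapped, and the change of 0.07 did not pass (adjusted p = 0.81). Of the 14 tested genes of coenzyme Q synthesis COQ3 was the sole one to pass, and the list's median was -0.025.

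MRPL48 (ENSG00000175581.14, chromosome 11, 73787874 to 73865133) encodes a structural protein of the mitochondrial ribosome's large subunit. It was at 19.6, 16 and 17 CPM with DMSO and 13.3, 14.1 and 13.5 with DOX in sgZBTB11 #1, and at 17.5, 15.7 and 16.7 against 10.9, 11.4 and 11.3 in sgZBTB11 #2. The groups did not overlap in either guide, and the log2 change was -0.47 (SE 0.061, adjusted p = 3.1e-06), beside 0.06 in sgNS (adjusted p = 0.85). AGK (ENSG00000006530.18, chromosome 7, 141551410 to 141655244) encodes acylglycerol kinase, which is also part of the TIM22 complex that inserts carrier proteins into the inner membrane. Its level was 34.7, 34.9 and 37.3 CPM with DMSO against 29.7, 30.3 and 29.2 with DOX in sgZBTB11 #1, and 37.8, 37.2 and 36.9 against 24.6, 27 and 25.5 in sgZBTB11 #2. It fell by 0.41 (SE 0.045, adjusted p = 1.3e-07), again with no overlap in either guide, and was at 0.09 in sgNS (adjusted p = 0.53).

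The other large decreases were in genes with varied roles. MAN2C1, a cytosolic alpha-mannosidase (chromosome 15, 75355792 to 75368607), was at 113, 114 and 104 CPM with DMSO and 91.6, 89 and 80.3 with DOX in sgZBTB11 #1, and at 98.1, 98.5 and 97.7 against 68.7, 66.1 and 65.6 in sgZBTB11 #2. It fell by 0.45 (adjusted p = 1.3e-07) and was at -0.08 in sgNS (adjusted p = 0.47). C17orf75 fell by 0.42 (adjusted p = 1.4e-07), from 30.3 to 32.3 CPM in the 6 DMSO libraries to 19.7 to 27 in the 6 DOX libraries. EEFSEC, the elongation factor that brings selenocysteine tRNA to the ribosome, fell by 0.45 (adjusted p = 0.00017), with -0.22 in sgZBTB11 #1 and -0.66 in sgZBTB11 #2. IFT56, a part of the intraflagellar transport complex that builds cilia, fell by 0.39, PSD, an exchange factor for the GTPase ARF6, by 0.39, and the long noncoding RNA LINC00920 by 0.54. These 5 had changes of -0.01 (EEFSEC), 0.05 (IFT56), 0.17 (PSD), 0.34 (LINC00920) and 0.10 (C17orf75) in sgNS, none past the threshold. ZNF488, a zinc finger gene, fell by 0.43 and was at -0.34 in sgNS (adjusted p = 0.11), and net of sgNS its change was -0.09 (adjusted p = 0.86). THAP10, at a mean of 5 CPM, fell by 0.39 (adjusted p = 0.046), but its DOX and DMSO libraries overlapped in sgZBTB11 #1.

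Some of the smallest adjusted p-values belonged to genes that also fell in the control guide. AKR1B1, an aldose reductase, was at 147, 163 and 151 CPM with DMSO and 128, 119 and 124 with DOX in sgZBTB11 #1, and at 166, 177 and 178 against 136, 142 and 134 in sgZBTB11 #2. It fell by 0.33 (adjusted p = 2.9e-10) with the ZBTB11 guides and by 0.22 in sgNS (adjusted p = 0.0033). SERPINA3, a secreted protease inhibitor, fell by 0.25 with the ZBTB11 guides and by 0.28 in sgNS (adjusted p = 7.5e-09 and 1.2e-08). TM4SF1, a membrane protein of carcinoma cells, fell by 0.23 and by 0.13 in sgNS (adjusted p = 1.1e-08 and 0.043). Net of sgNS none of these 3 passed, with -0.10 for AKR1B1, 0.03 for SERPINA3 and -0.11 for TM4SF1 (adjusted p = 0.46, 0.82 and 0.3).

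**Figure D3:**
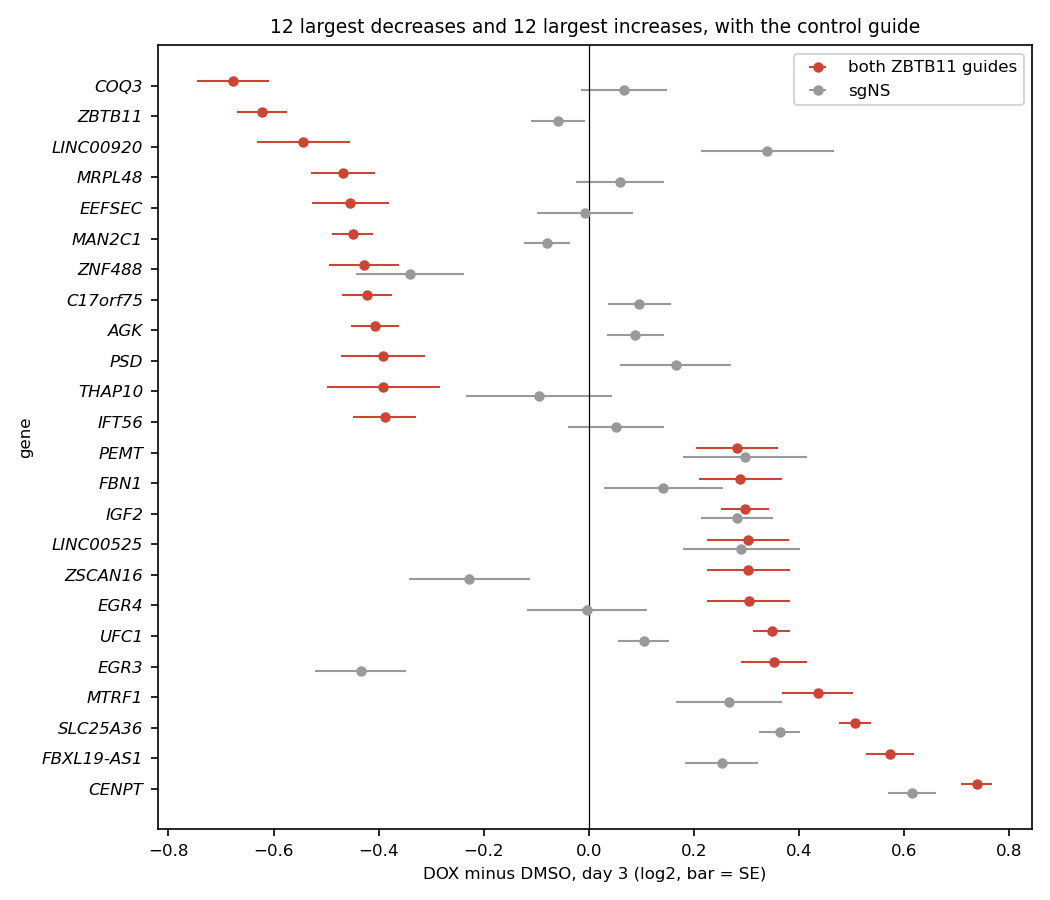
Log2 change with DOX at day 3 (horizontal axis, bars are standard errors) of the 12 genes with the largest decreases and the 12 with the largest increases, for both ZBTB11 guides together (red) and sgNS (grey). The grey points of most decreases lie near 0, with ZNF488 at -0.34, whereas CENPT, SLC25A36, IGF2 and PEMT have grey points close to the red ones.

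Among the mitochondrial gene groups, the large ribosomal subunit held the most decreases. Of its 49 genes, all tested, 10 fell and 0 rose, and 44 had a change below 0, beside 1.58% that fell, 0.419% that rose and 8236 below 0 among the 16472 genes tested. The same shares of all genes stand behind the counts of the other lists. The median was -0.06, beside 4.8e-06 over all genes tested and 0.02 for the same genes in sgNS. It was -0.056 in sgZBTB11 #1 and -0.065 in sgZBTB11 #2. After MRPL48, the largest decreases were those of MRPL30 (-0.38, adjusted p = 2.2e-08), MRPL40 (-0.31, 5.5e-06) and MRPL1 (-0.30, 0.00016), all structural proteins of the subunit. MRPL30 was at 47.1, 49.2 and 53.3 CPM with DMSO and 41.5, 38.1 and 41.1 with DOX in sgZBTB11 #1, and at 56, 51.8 and 52.7 against 40.2, 40.9 and 37.2 in sgZBTB11 #2. MRPL40 was at 64.9, 60.4 and 64.7 against 56.9, 54.8 and 52.5 CPM in sgZBTB11 #1, and at 65.3, 64.4 and 68.5 against 52.8, 52.6 and 45.8 in sgZBTB11 #2. Neither gene's groups overlapped in either guide, and in sgNS the changes were -0.08 for MRPL30 and 0.11 for MRPL40 (adjusted p = 0.55 and 0.37).

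Of the 31 tested genes of the small mitochondrial ribosomal subunit 4 fell and 0 rose, with a median of -0.04 and 29 below 0. MRPS34 (-0.20), MRPS22 (-0.18), MRPS2 (-0.18) and MRPS30 (-0.12) passed. In sgNS the mean level with DOX was 89.5% of that with DMSO for MRPS34, 97.9% for MRPS22, 100.6% for MRPS2 and 96.4% for MRPS30. Of 52 factors of mitochondrial DNA expression 4 fell and 1 rose, with a median of -0.05. Those that fell include TACO1, which promotes translation of a complex IV subunit (-0.27, adjusted p = 0.0038), GTPBP3, which modifies mitochondrial tRNAs (-0.22, 0.00029), and FASTK (-0.12, 0.016). Mean sgNS levels with DOX were 90.4% of those with DMSO for TACO1, 93.4% for GTPBP3 and 97.9% for FASTK. MTRF1, a mitochondrial release factor, rose by 0.44 with the ZBTB11 guides and was at 0.27 in sgNS (adjusted p = 6.7e-05 and 0.23). Of 20 mitochondrial tRNA synthetases TARS2 (-0.23), VARS2 (-0.14) and YARS2 (-0.14) fell and 0 rose. As TPM, TARS2 did not fall in sgZBTB11 #1, where it was at 12.35 to 14 with DMSO and 12.57 to 14.53 with DOX.

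Among the respiratory chain lists, complex I held the most decreases. Of 37 nuclear complex I subunits 4 fell and 0 rose, with a median of -0.04. Those that fell were NDUFC2 (-0.17), NDUFS7 (-0.15), NDUFA12 (-0.15) and NDUFB11 (-0.11). In sgNS their mean levels with DOX were 98.6%, 92.4%, 108.2% and 98.2% of those with DMSO. NDUFS7 was at 90.9% in sgZBTB11 #1 and 89.1% in sgZBTB11 #2. With each guide tested alone, 0 of the 37 fell in sgZBTB11 #1 and 1 in sgZBTB11 #2, beside 0.51% and 0.838% of all genes. None of the 18 complex I assembly factors passed. UQCRC1, a core subunit of complex III, was the single gene of 24 in complexes II and III to fall (-0.11, adjusted p = 0.042). Its mean level with DOX was 92.1% of that with DMSO in sgNS, beside 96.6% in sgZBTB11 #1 and 89.1% in sgZBTB11 #2. Of 35 genes of complex IV and its assembly 1 fell, which was TACO1. Of 21 genes of ATP synthase 1 fell, the assembly factor ATPAF1 (-0.19, adjusted p = 9.8e-05), which was at 0.09 in sgNS (adjusted p = 0.4). AGK was the single gene to fall among 39 of mitochondrial protein import, and none of 21 genes of iron-sulfur cluster assembly or of 18 mitochondrial chaperones and proteases passed. Medians of these lists lay between -0.042 and 0.0014, beside 0.09 in sgNS for ATP synthase and 0.07 for complex IV.

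The 13 mRNAs encoded by mitochondrial DNA had changes above 0. The median was 0.08, with 0 of the 13 below 0, and MT-ATP6 (0.16, adjusted p = 2.7e-05), MT-CO2 (0.11, 0.012) and MT-CYB (0.10, 0.019) rose. The share of counts from mitochondrial DNA was 21.8% ± 0.57 with DMSO and 21.8% ± 0.24 with DOX in sgZBTB11 #1, 17.9% ± 0.044 and 19.1% ± 0.23 in sgZBTB11 #2, and 18.4% ± 0.34 and 19.9% ± 0.11 in sgNS (SD, n = 3 each). DOX and DMSO libraries did not overlap in this share in sgZBTB11 #2 and sgNS, and its part in the result was not tested. In sgNS the list's median was 0.18, against 0.01 for sgZBTB11 #1 and 0.14 for sgZBTB11 #2. MT-ATP6 rose in sgNS too (0.28, adjusted p = 2.5e-08).

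Outside mitochondria, 10 of 79 cytosolic ribosomal protein genes fell and 1 rose (1.58% and 0.419% over all genes tested). The median was -0.06 with 75 below 0, beside a median of 0.05 in sgNS. With each guide tested alone, 0 fell in sgZBTB11 #1 and 6 in sgZBTB11 #2, beside 0.51% and 0.838% of all genes. The guides' medians were -0.065 and -0.056. RPL29 (-0.15, adjusted p = 0.00011), RPL10A (-0.12) and RPSA (-0.11) fell, and RPL35A rose by 0.11. Mean sgNS levels with DOX were 102.8% of those with DMSO for RPL29, 92.1% for RPL10A, 100.1% for RPSA and 110.2% for RPL35A. Of 22 glycolysis genes 4 fell and 1 rose, with a median of -0.06, and the sgNS median was -0.06 as well. By guide, 0 of the 22 fell in sgZBTB11 #1 and 4 in sgZBTB11 #2, beside the same shares of all genes. GAPDH fell by 0.12, ENO1 by 0.13 and ALDOA by 0.12, while PKM, which makes pyruvate kinase, rose by 0.17 and also by 0.16 in sgNS (adjusted p = 2.6e-06 and 0.0036). In the TCA cycle, MDH2 (-0.14) and GLUD1 (-0.11) fell, 2 of 31 genes. In sgNS their mean levels with DOX were 89.5% and 96.2% of those with DMSO. For MDH2 the ZBTB11 guides stood at 95.1% in sgZBTB11 #1 and 86.7% in sgZBTB11 #2.

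Of 31 genes of cholesterol and fatty acid synthesis 4 fell and 0 rose, among them INSIG1, which holds back the activation of the sterol regulator SREBP (-0.19), FASN, the fatty acid synthase (-0.15), and SCD (-0.08). FASN was at -0.14 in sgNS (adjusted p = 0.083). Of 19 NRF2 targets 3 fell, NQO1 (-0.14), TKT (-0.12) and PGD (-0.09), and the list's median was -0.049, beside -0.041 in sgNS. In sgNS the mean with DOX was 94.4% of that with DMSO for NQO1, 93.75% for TKT and 97.5% for PGD. TKT was at 92.9% in sgZBTB11 #1 and 91.3% in sgZBTB11 #2. Of 43 genes of DNA replication 5 fell and 0 rose, among them MCM5 (-0.17), MCM4 (-0.11), MCM7 (-0.11) and GINS4 (-0.10), and none of the 42 genes of G2 and mitosis passed. Mean sgNS levels with DOX were 93.7% of those with DMSO for MCM5, 96.5% for MCM4, 95.6% for MCM7 and 91.1% for GINS4. Of 30 genes of MYC and its targets 3 fell, the ribosome assembly factors BOP1 (-0.27), NOP58 (-0.13) and NOLC1 (-0.12). Their mean sgNS levels with DOX were 93.8%, 98.2% and 92% of those with DMSO.

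The stress lists differed in how many members changed. Of 35 genes of the ATF4 integrated stress response, a programme that many mitochondrial defects set off, SLC3A2 alone passed and it fell (-0.13, adjusted p = 0.043). None of 19 genes of the unfolded protein response of the ER, 26 of the BCL2 family and apoptosis or 16 of the hypoxia response passed. Of 19 NF-kB genes 4 fell, beside 1.58% of all genes tested, the chemokines CXCL1 (-0.27), CXCL8 (-0.20) and CXCL2 (-0.18) and the subunit NFKB2 (-0.14). In sgNS CXCL1, CXCL8 and CXCL2 fell as well, with -0.25, -0.30 and -0.39 (adjusted p = 0.047, 0.00023 and 0.0061). Of 16 tested histone genes H1-4, a linker histone at a mean of 2.89 CPM, fell by 0.56 (adjusted p = 0.0064) and was at 0.41 in sgNS (adjusted p = 0.31). Of 28 genes of RAS-MAPK output ETV4, an ETS factor induced by ERK signalling, fell by 0.29 (adjusted p = 0.00026) and EGR1 rose.

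**Figure D4:**
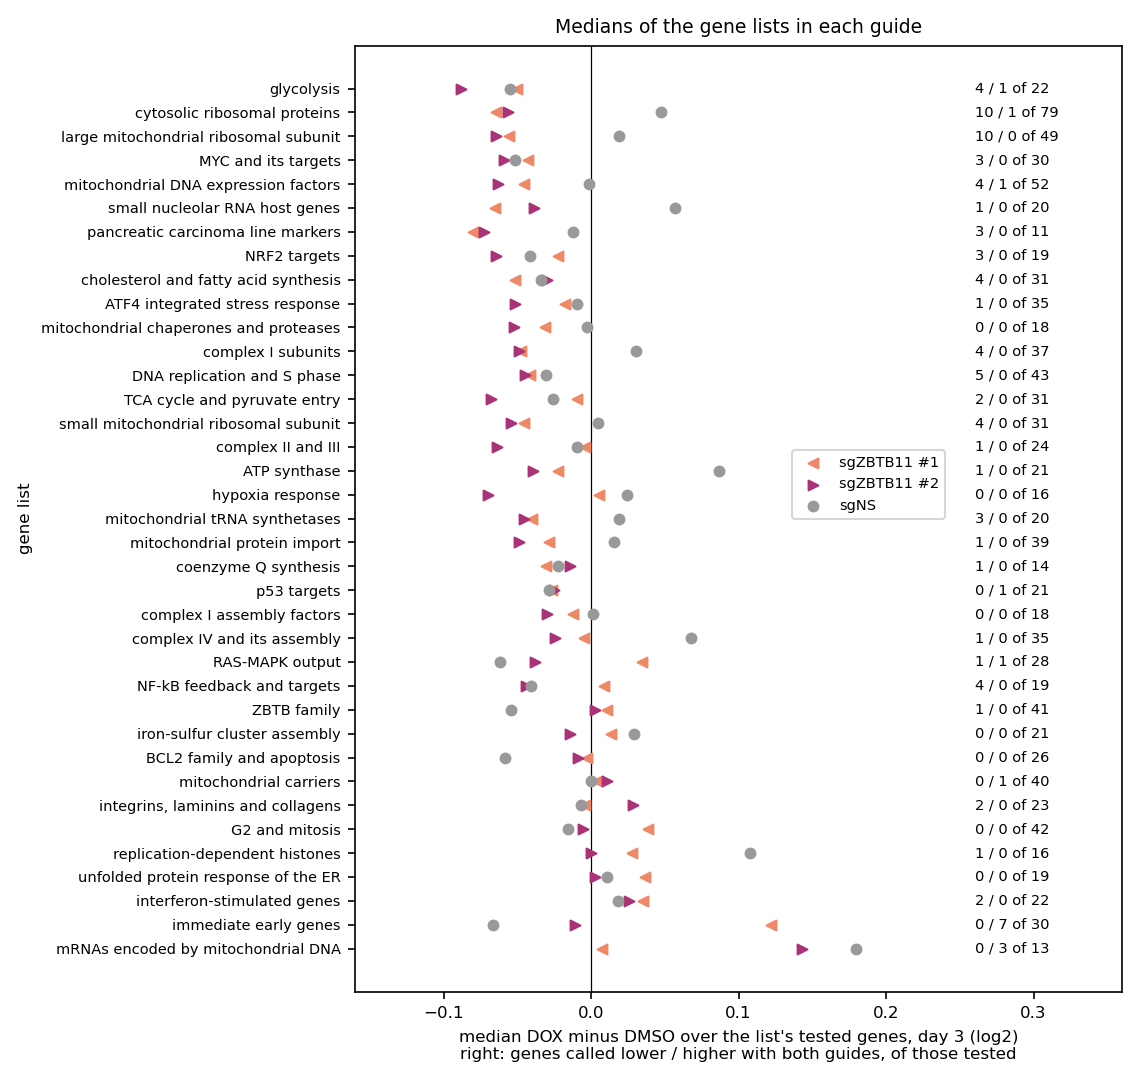
Median log2 change with DOX at day 3 over the tested genes of each list other than the neighbours of ZBTB11 and the markers of other cell types (horizontal axis) in sgZBTB11 #1, sgZBTB11 #2 and sgNS, with the numbers of genes that fell and rose with both ZBTB11 guides at the right. Medians shown for the ZBTB11 guides lie within 0.15 of 0, and for the cytosolic ribosomal proteins and the large mitochondrial subunit both guides lie below 0 and sgNS above it.

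Several of the largest increases were also seen in the control guide. CENPT, a kinetochore protein gene (chromosome 16, 67828157 to 67847693), was at 145, 158 and 146 CPM with DMSO and 262, 262 and 243 with DOX in sgZBTB11 #1, and at 127, 131 and 134 against 223, 200 and 217 in sgZBTB11 #2. In sgNS it was at 137, 123 and 122 against 197, 191 and 198. The groups were apart in all 3 guides, and the log2 change was 0.74 (SE 0.030, adjusted p = 3.3e-17) with the ZBTB11 guides and 0.61 in sgNS (adjusted p = 2.7e-09). THAP11, named here for its overlap, lies within the span of CENPT and fell by 0.27 (adjusted p = 0.00058). Reads of the overlap cannot be assigned to either gene without strand. SLC25A36, a carrier of pyrimidine nucleotides into mitochondria, rose by 0.51 and by 0.36 in sgNS (adjusted p = 5.5e-13 and 8.6e-08). The noncoding RNA FBXL19-AS1 rose by 0.57 (adjusted p = 6.7e-11) and was at 0.25 in sgNS (adjusted p = 0.068). IGF2, a growth factor gene, rose by 0.30 and by 0.28 in sgNS (adjusted p = 7.5e-05 and 0.029). Net of sgNS the changes were 0.12 for CENPT, 0.14 for SLC25A36, 0.32 for FBXL19-AS1 and 0.01 for IGF2, none past the threshold (adjusted p = 0.43, 0.21, 0.066 and 0.97).

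UFC1, the conjugating enzyme of the ubiquitin-like protein UFM1, rose more than in the control. It was at 59.4, 64 and 60.3 CPM with DMSO and 79.6, 70.7 and 72 with DOX in sgZBTB11 #1, and at 55, 58.1 and 57.3 against 78.2, 74.5 and 74.6 in sgZBTB11 #2, with no overlap. The change was 0.35 (SE 0.035, adjusted p = 1.5e-08), beside 0.10 in sgNS (adjusted p = 0.37) and 0.24 net of sgNS (adjusted p = 0.043). BTG2, an antiproliferative gene that p53 and growth signals induce, was at 87.1, 89.2 and 88 CPM against 103, 101 and 99.4 in sgZBTB11 #1, and at 83.3, 89.8 and 83.8 against 102, 106 and 102 in sgZBTB11 #2. It rose by 0.24 (SE 0.028, adjusted p = 6.5e-07) and was at 0.00 in sgNS (0.0043, adjusted p = 0.98). BTG2 was the single gene of 21 p53 targets to pass.

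Of 30 immediate early genes, which growth factor signalling switches on within minutes, 7 rose and 0 fell, with a median of 0.04. By guide, 6 rose in sgZBTB11 #1 and 1 in sgZBTB11 #2, beside 0.17% and 0.231% of all genes tested. In sgZBTB11 #2, 16 of the 30 were below 0. In sgNS 2 rose and 6 fell, beside 0.403% and 0.475% of all genes tested there. The list's median was -0.07 in sgNS, against 0.12 for sgZBTB11 #1 and -0.01 for sgZBTB11 #2, and the difference was not tested for the list. EGR3 was at 14.7, 12 and 13.4 CPM against 17.7, 19.8 and 19.3 in sgZBTB11 #1, and at 15.2, 16.4 and 13.6 against 18.4, 16.6 and 17.6 in sgZBTB11 #2. It rose by 0.35 with both guides (adjusted p = 0.00058), and fell by 0.43 in sgNS (adjusted p = 0.0053), from 16.4, 16.6 and 15.9 to 12.3, 12.4 and 11.4. EGR4 rose by 0.30 (adjusted p = 0.03), with 0.48 in sgZBTB11 #1 and 0.11 in sgZBTB11 #2, and EGR1 rose by 0.12 (adjusted p = 0.00072).

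SOCS3, a feedback inhibitor of cytokine signalling, and FOSB, a partner of JUN proteins, differed between the 2 guides. SOCS3 was at 41.6, 41.8 and 40.4 CPM with DMSO and 52.3, 51.6 and 52 with DOX in sgZBTB11 #1, and at 44.4, 48.9 and 46.8 against 40.7, 41.1 and 40.3 in sgZBTB11 #2. It rose by 0.33 in the first and fell by 0.20 in the second, and the difference was -0.53 (adjusted p = 3.8e-05). FOSB was at 123, 123 and 126 CPM against 147, 146 and 153 in sgZBTB11 #1, and at 146, 142 and 143 against 128, 133 and 134 in sgZBTB11 #2. It rose by 0.26 in the first (adjusted p = 3.9e-05) and was at -0.13 in the second (adjusted p = 0.054), and the difference was -0.39 (adjusted p = 3.8e-05). In sgNS both fell, by 0.38 for SOCS3 and 0.26 for FOSB (adjusted p = 3.4e-05 and 0.0001), and with both ZBTB11 guides together neither passed (0.06 each).

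The same contrast was tested at days 1 and 5, in libraries that the day 3 test did not use. At day 1 1968 of 15729 genes changed (12.5%), 805 up and 1163 down, and at day 5 919 of 16502 (5.57%), 348 up and 571 down. In sgNS 356 of 16275 genes changed at day 1 (2.19%) and 2915 of 16809 at day 5 (17.3%). How many of the day 3 genes also changed in sgNS at days 1 and 5 was not counted. Of the 261 genes that fell at day 3, 235 of the 260 tested had a change below 0 at day 1, and 145 fell past the threshold, 55.6% of the 261 and 12.5% of the 1163. At day 5, 214 of the 261 were below 0 and 113 fell, 43.3% of the 261 and 19.8% of the 571. Over all genes tested at both times the shares below 0 were 47.8% at day 1 and 49% at day 5. Of the 69 genes that rose, 23 rose at day 1 (33.3% of the 69, 2.86% of the 805) and 24 at day 5 (34.8% of the 69, 6.90% of the 348).

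Several genes that fell at day 3 did not pass at day 1, where their changes were near 0. MRPL48 was at 0.00 at day 1 (-0.0021, adjusted p = 0.99), -0.47 at day 3 and -0.47 at day 5 (adjusted p = 4.9e-05). AGK was at -0.01, -0.41 and -0.48 (day 1 adjusted p = 0.86, day 5 4e-07), and COQ3 at -0.10, -0.68 and -0.54 (0.2 and 8.1e-05). C17orf75 had changes of -0.08, -0.42 and -0.45, and MRPL40 of -0.06, -0.31 and -0.39. MRPL30 passed at day 1 as well (-0.10, adjusted p = 0.0069), though its change there was about the size of that of COQ3, which did not pass. ZBTB11 itself was already lower at day 1, with -0.42 (adjusted p = 0.00012), and was at -0.67 at day 5 (adjusted p = 0.0009). In sgNS it was at -0.11 at day 1 (adjusted p = 0.4) and fell by 0.15 at day 5 (adjusted p = 0.032). The differences between days were not tested for these genes. CENPT had the reverse course, with 1.67 at day 1, 0.74 at day 3 and 0.51 at day 5, beside 1.40, 0.61 and 0.38 in sgNS. Of the 49 genes of the large mitochondrial ribosomal subunit 12 fell and 2 rose at day 1, beside 7.39% and 5.12% of all genes tested then. At day 5, 13 fell and 0 rose, beside 3.46% and 2.11%.

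**Figure D5:**
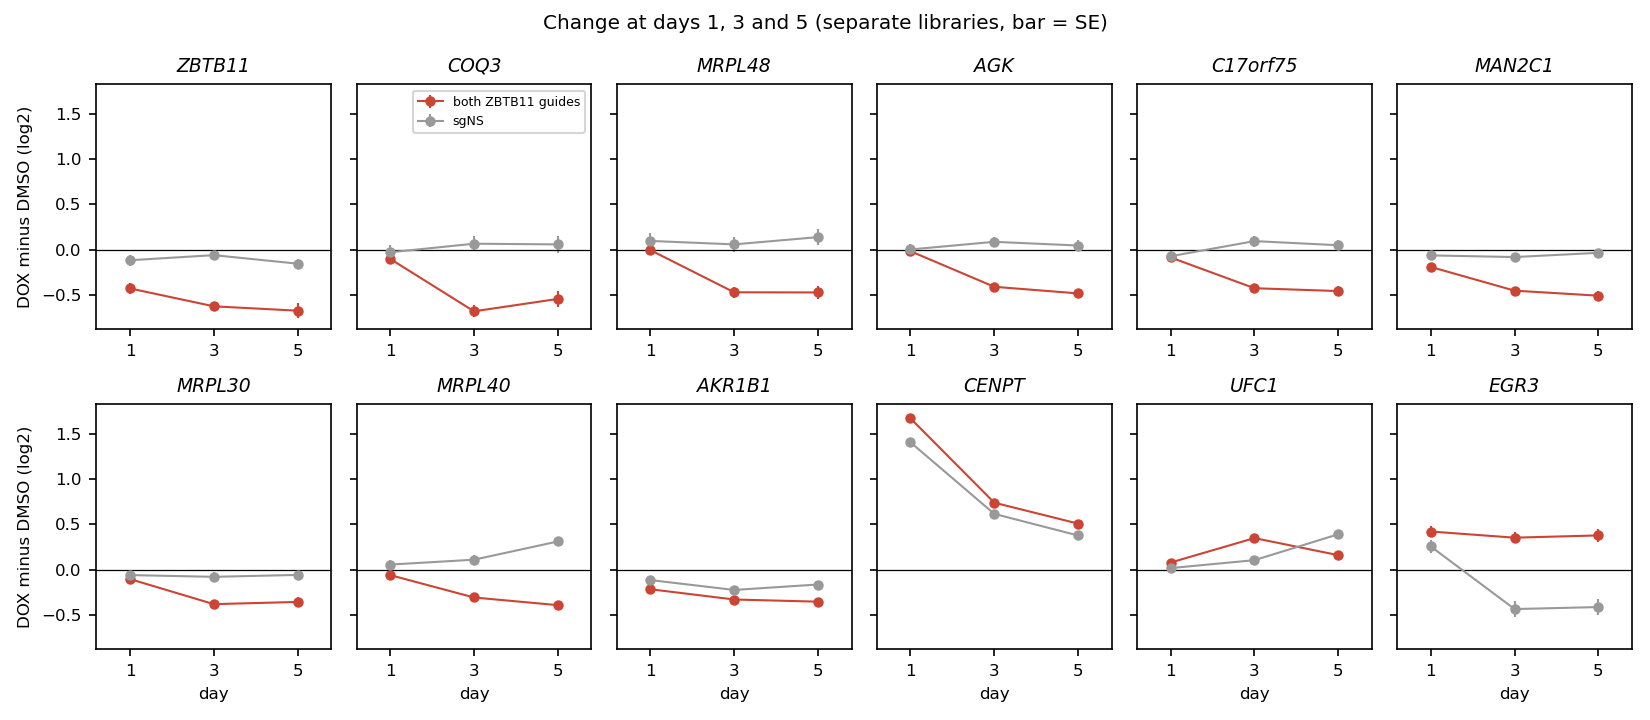
Log2 change with DOX (vertical axis, bars are standard errors) at days 1, 3 and 5 (horizontal axis) for 12 genes, with both ZBTB11 guides in red and sgNS in grey. COQ3, MRPL48, AGK, C17orf75 and MRPL40 lie near 0 at day 1 and below it at days 3 and 5, and CENPT falls from 1.67 to 0.51.

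Markers of other cell types were checked in the 18 libraries. CDH5, known from endothelial cells, fell by 0.29 with the ZBTB11 guides (adjusted p = 0.00023) and was at -0.31 in sgNS (adjusted p = 0.076), at 2.89 to 7.21 TPM, while PECAM1, VWF, KDR, TEK and CLDN5 reached at most 0.05 TPM. COL3A1, a fibroblast gene, fell by 0.22 and COL1A2 rose by 0.10, while DCN, LUM, PDGFRA, PDGFRB, FAP and POSTN reached at most 0.17 TPM. In sgNS the mean with DOX was 88.45% of that with DMSO for COL3A1 and 103.3% for COL1A2. COL3A1 was at 86.9% in sgZBTB11 #1 and 84.6% in sgZBTB11 #2. Of the same list, ACTA2 was at 6.11 to 9.67 TPM and COL1A1 at 0.37 to 1.3. None of the 4 tested blood cell markers passed, and no marker of acinar or islet cells was high enough to be tested. The blood cell markers CD8A, HBA1 and CD14 reached 2.07, 1.88 and 1.45 TPM. In bulk libraries, fewer cells of one kind and less RNA per cell cannot be told apart.

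The number of changed genes depended on the setting. It was 505 with no filter on low counts, 70 in limma on log2(TPM + 1) and 214 without sgZBTB11 #2 DMSO replicate 3, and with a trend of length and GC content removed it was 430, of which 140 rose and 290 fell, a smaller share of decreases. Among the 12 largest decreases, 9 passed under every alternative that gave an adjusted p (for LINC00920 and ZNF488 DESeq2 gave none), while EEFSEC and PSD were lost on the TPM scale and THAP10 also in 9 of the 12 fits that left out a library. Among the 12 largest increases, CENPT, FBXL19-AS1, SLC25A36 and UFC1 passed under every alternative, while MTRF1, EGR3 and IGF2 were lost on the TPM scale and ZSCAN16, EGR4, LINC00525, FBN1 and PEMT also without single libraries. Among the list members named above, the calls of CXCL2, NFKB2, SLC3A2, MCM5, UQCRC1, SCD, PGD, NDUFS7, NDUFA12, MRPS34, YARS2, FASTK, MCM4, NOP58, NOLC1, RPL35A, KRT18, MT-CYB and MT-CO2 were lost in 2 or more of the 12 fits that left out a single library. Those of MRPS30, RPSA, NDUFB11, MCM7 and GINS4 were lost in 1. In limma on log2(TPM + 1), 62 of the 105 named genes lost their call, so a member absent from these lists may still depend on the setting.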

How the data were processed

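RNA was measured as poly(A) libraries read in pairs, per the labels' protocols. The authors deposited expected counts per gene for 78932 genes, made with RSEM on GRCh38.p14 per the submitters' processing notes. They also deposited TPM per gene. Which aligner, annotation release and strand option were used is not given in the sources. Of the expected counts, 5.13% were not whole, and all were rounded before testing. Genes were filtered with filterByExpr by group, scaled with TMM and tested with edgeR 4.0.16 (quasi-likelihood, robust; R 4.3.3) with guide as covariate, at a Benjamini-Hochberg adjusted p of 0.05 over all genes tested. Single guides and their difference came from 4 group means, and the net change from 6 group means over 18 libraries. Depth was 12068833 to 17323314 counts per library. The main test, with both guides at day 3, was also run on simulated counts. Alternatives used DESeq2 1.42.0, limma 3.58.1 on log2(TPM + 1), which kept genes that reached 1 TPM in 3 libraries, RLE scaling, no filter, other fits, left-out libraries and, chosen after seeing the data, removal of a length and GC trend (mgcv 1.9.3). Promoter windows are RefSeq's on GRCh38.p14. Figures used matplotlib 3.10.9.

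The comparison, the 42 gene lists (1126 symbols, of which 2 were not matched) and the motifs were chosen with earlier results of these data known. Named genes were those past the threshold with a mean of at least 5 CPM that had the 12 largest increases, the 12 largest decreases or the 6 smallest adjusted p in either direction, ZBTB11 and its neighbours, up to 4 changed members of each list and up to 5 genes that differed between the guides. THAP11 was named outside this rule. Libraries of a group were compared in 18 pairs, and none were identical or agreed within counting noise (chi-square per degree of freedom 1.35 to 3.34).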

Additional observations from a re-analysis of the deposited data

Results flagged for a closer look

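For 21 of the named genes the change with the ZBTB11 guides at day 3 differed from that in sgNS. The test was that of the net change in edgeR's quasi-likelihood fit of 18 libraries, which 82 genes passed in all. That count was 262 without sgNS DMSO replicate 1 and 29 to 46 without any other sgNS library. Whether each of the 21 still passed in those fits was not checked. The net log2 change was lower for the mitochondrial genes COQ3 (-0.74), MRPL48 (-0.53), AGK (-0.49), MRPL40 (-0.41), MRPL30 (-0.30), ATPAF1 (-0.28) and NDUFA12 (-0.26). It was also lower for ZBTB11 (-0.56), H1-4 (-0.97), LINC00920 (-0.88), PSD (-0.56), C17orf75 (-0.52), MAN2C1 (-0.37), GAS5, a host gene of small nucleolar RNAs (-0.19), and RPL29 (-0.19). Part of some net values came from sgNS. There the mean with DOX was 132.9% of that with DMSO for H1-4, 126.5% for LINC00920, 112.3% for PSD and 108.2% for NDUFA12. It was 107.9% for MRPL40, 106.9% for C17orf75, 106.3% for AGK, 106.2% for ATPAF1 and 106.1% for GAS5. For COQ3, MRPL48 and RPL29 it was 104.8%, 104.2% and 102.8%. It was lower with DOX for ZBTB11 (96.1%), MAN2C1 (94.6%) and MRPL30 (94.7%).

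The net change was higher for EGR3 (0.80), NFKBIZ (0.47), SOCS3 (0.45), FOSB (0.32), UFC1 (0.24) and BTG2 (0.23). NFKBIZ, a regulator of NF-kB that lies near ZBTB11 on chromosome 3, was at 0.04 with the ZBTB11 guides (adjusted p = 0.82) and fell by 0.42 in sgNS (adjusted p = 0.0032), so most of its net value came from the control guide. The same held for SOCS3 and FOSB, whose sgNS means with DOX were 77% and 83.6% of those with DMSO. In sgZBTB11 #1 they were 126% and 119.7%, and in sgZBTB11 #2 87.2% and 91.5%. EGR3 was at 74% in sgNS, beside 141.9% in sgZBTB11 #1 and 116.3% in sgZBTB11 #2. The change differed between the ZBTB11 guides for SOCS3 (-0.53, sgZBTB11 #2 minus sgZBTB11 #1) and FOSB (-0.39).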

How the results depend on the processing

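The 330 genes changed with both guides became 70 in limma on log2(TPM + 1), where 63 of the 330 still passed, and 505 where low counts were not filtered out. Leaving out 1 library at a time gave 214 to 361, and the lowest came without sgZBTB11 #2 DMSO replicate 3. RLE scaling gave 320, DESeq2 288, the fit of 18 libraries 420 and 4 group means 386. Removal of the length and GC trend gave 430, with 293 of the 330 still past the threshold. The median GC content was 54.4% for genes that fell, 48.4% for those that rose and 50.2% for all. For sgZBTB11 #1 alone (112) the count was 206 with no filter, 17 in limma and 46 to 140 with a library left out, and for sgZBTB11 #2 (176) it was 282, 58 and 89 to 199. The 3 genes that differed between the guides became 5 in DESeq2, 41 with no filter and 2 to 5 with a library left out. The 82 net of sgNS became 195 with no filter, 22 in limma and 29 to 262 with a library left out, where the lowest came without sgNS DMSO replicate 3 and also without sgNS DOX replicate 3, and the highest without sgNS DMSO replicate 1. Day 1 (1968) gave 656 in limma and 1471 to 2149 with a library left out, and day 5 (919) gave 209 and 515 to 970, the lowest without sgZBTB11 #2 DOX replicate 3. The cause of these shifts was not tested.

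Same-numbered DOX and DMSO libraries did not deviate together (correlations of -0.137 to 0.0871 in 9 pairs), so the numbers were not taken to pair them. With the replicate block 263 genes changed with both guides, 8 differed between the guides, 48 passed net of sgNS and 530 changed at day 5. Of the named genes, SENP7 and ZBTB11-AS1, neighbours of ZBTB11 with changes near 0, switched sign. SENP7 was at 0.015 in limma and at -0.0683 to 0.0162 without single libraries (0.00767 without sgZBTB11 #1 DMSO replicate 3, 0.00093 without sgZBTB11 #1 DOX replicate 2, 0.0092 without sgZBTB11 #2 DMSO replicate 1, 0.016 without sgZBTB11 #2 DOX replicate 2), and ZBTB11-AS1 was at -0.135 to 0.0022 without single libraries, the highest without sgZBTB11 #2 DMSO replicate 2. Detectability at low counts was not measured.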
